A study of Bos taurus with 4 samples.

Results

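GATA6, FOXA2, MSX2 and WNT2 are 4 genes of lineage choice and cell signalling, and the data describe the chromatin within 500 kb of each of them in bovine embryonic stem cells (bESCs). The genes were taken by name, with 1 position each in the ARS-UCD1.2 assembly: 34.19 Mb on chromosome 24 for GATA6, 41.54 Mb on chromosome 13 for FOXA2, 6.445 Mb on chromosome 20 for MSX2 and 51.105 Mb on chromosome 4 for WNT2. The positions are rounded, so distances from them are exact to a few kb at best, and they were not taken from an annotation of this assembly. Within 500 kb of the 4 positions lay 53 of the 24430 H3K27me3 peaks of replicate 1 and 45 of the 21244 of replicate 2, together with 33 of 26048 and 30 of 23986 H3K4me3 peaks. The lists came from CUT&RUN, in which an antibody brings a nuclease to a histone mark and the released DNA is sequenced, with 2 libraries for each of 2 marks and 50000 cells per library.

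The cells of all 4 libraries had the same treatment. They were NBFR-bESCs, which the labels derive from 1 female blastocyst of day 7 and 1 derivation. The study instead reports CUT&RUN for both marks on 2 independent lines, without linking a replicate number to either. These accounts differ. The culture held N2B27 base medium with 20 ng/mL FGF2, 2.5 µM IWR-1, an inhibitor of Wnt signalling through tankyrase, and 1% BSA, on mouse feeder cells that were removed before the assay. There was no differentiated or untreated group, so each value is set beside the rest of its own list, and no test between groups could be made with 2 libraries per mark. The values of both replicates are given side by side in place of a mean. Replicates are separate libraries by their labels, which do not say whether they stand for these lines, so whether their spread is one between lines or between libraries of 1 line cannot be told apart. The depth behind the lists is unknown, so a peak that is missing is called not listed.

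H3K27me3 is written by the Polycomb repressive complex PRC2 and lies over silent developmental genes in pluripotent cells, whereas H3K4me3 lies at promoters that are active or held ready. A promoter with both marks is called bivalent, and such promoters are typical of genes that are switched on in 1 lineage and kept off in others. GATA6 is a zinc finger factor of primitive endoderm and heart. FOXA2 is a forkhead factor of definitive endoderm, node and floor plate. MSX2 is a homeobox factor that responds to BMP signals in neural crest, skull and limb. WNT2 is a secreted Wnt ligand with roles in lung, placenta and heart.

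All 4 positions lay inside an H3K27me3 peak in both replicates, which describes genes chosen as loci under this mark and is no test of it. That peak is called the domain of the gene here. The domains fell in the same order of width in both replicates, with FOXA2 the widest, then GATA6, MSX2 and WNT2. At FOXA2 the domain was 119 kb wide in replicate 1 and 175.4 kb in replicate 2. At GATA6 it was 33.8 kb and 35.2 kb, at MSX2 20.8 kb and 25.8 kb, and at WNT2 12.2 kb and 17.8 kb. FOXA2 and GATA6 stood apart from each other and from the other genes by more than their replicates differed. MSX2 and WNT2 did not, since the MSX2 domain of replicate 1 and the WNT2 domain of replicate 2 were closer in width than the replicates of either gene. For comparison, the median H3K27me3 peak was 6.6 kb wide in replicate 1 and 7.8 kb in replicate 2, and each of the 4 domains was wider than that.

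**Figure D1:**
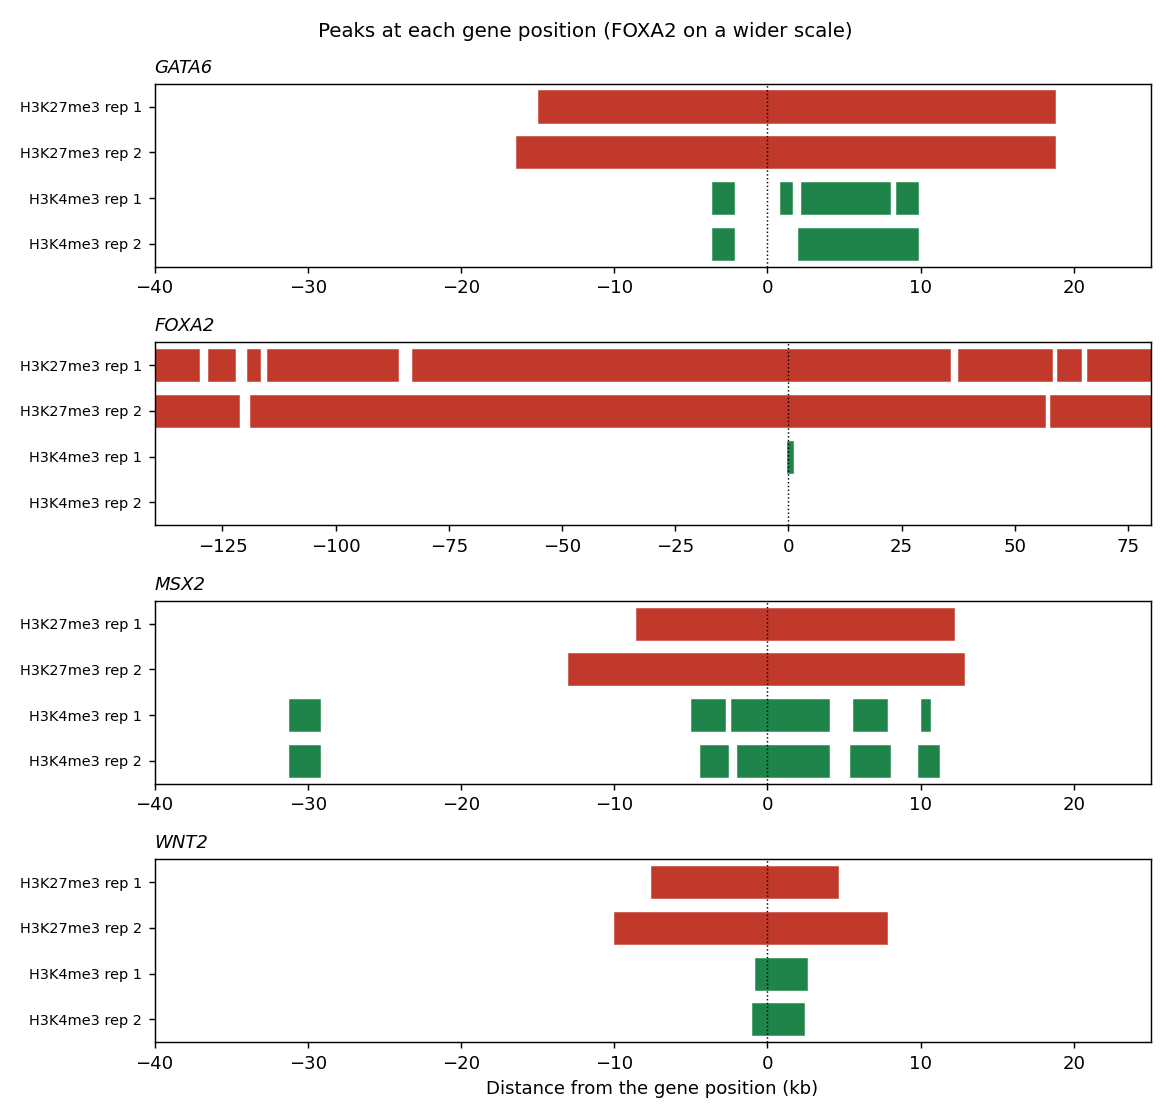
Peaks of H3K27me3 (red) and H3K4me3 (green) in each replicate at the 4 gene positions, by distance in kb from the position (dotted line), with FOXA2 drawn on a wider scale than the others. The domains of GATA6, MSX2 and WNT2 surround H3K4me3 peaks in both replicates, while FOXA2 has a single H3K4me3 peak, of 1.4 kb, in replicate 1.

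In the files' coordinates the GATA6 domain ran from 34175001 to 34208800 on chromosome 24 in replicate 1 and from 34173601 to 34208800 in replicate 2. Its upper edge was thus the same to the window of 200 bp, and its lower edge lay 1.4 kb further out in replicate 2. The MSX2 domain ran from 6436401 to 6457200 on chromosome 20 in replicate 1 and from 6432001 to 6457800 in replicate 2, a shift of 4.4 kb at the lower and 0.6 kb at the upper edge. At WNT2 the edges moved outwards by 2.4 kb and 3.2 kb. At FOXA2 the domain ran from 41456801 to 41575800 on chromosome 13 in replicate 1 and from 41421201 to 41596600 in replicate 2, with shifts of 35.6 kb and 20.8 kb. In all 4 cases the whole replicate 1 domain lay inside that of replicate 2, which held for 49.0% of the H3K27me3 peaks of replicate 1 as a whole. The part common to both was 96.0% of the joint extent at GATA6, 80.6% at MSX2, 68.5% at WNT2 and 67.8% at FOXA2. GATA6 therefore had the most stable limits of the 4.

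The peak score in the lists, for which the sources used here give no definition, placed the domains in the same order within each list. The FOXA2 domain scored 6925 in replicate 1 and 13745 in replicate 2, which put it in place 90 of 24430 and 68 of 21244. GATA6, with scores of 2138 and 3545, stood in place 739 and 815. MSX2, with 1084 and 1776, stood in place 1875 and 2010. WNT2, with 722 and 1402, stood in place 3049 and 2674. In shares of the list, FOXA2 was at or above 99.6% and 99.7% of the peaks, GATA6 97.0% and 96.2%, MSX2 92.3% and 90.5%, and WNT2 87.5% and 87.4%. The replicates of each gene were closer to each other in these shares than any of the 4 genes were to the next. Scores as such were higher in replicate 2, by 1.64 to 1.98 times at the 4 domains and with list medians of 180 and 315, so only places within a list are compared.

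The order narrowed once the score was divided by the number of windows. Whether the score adds up along the length of a peak is not stated in the sources used here. Per window of 200 bp the domains scored 12.7 and 20.1 at GATA6, 11.8 and 15.8 at WNT2, 11.6 and 15.7 at FOXA2 and 10.4 and 13.8 at MSX2, in replicates 1 and 2. The list medians were 5.75 and 8.40. On this scale WNT2 reached 93.9% and 92.2% and FOXA2 93.6% and 92.1%, while GATA6 was highest, at 95.0% and 96.4%, and MSX2 lowest, at 90.9% and 88.3%. WNT2 and FOXA2 thus differed by less than their replicates did, although the FOXA2 domain was 119 kb against 12.2 kb wide in replicate 1 and 175.4 kb against 17.8 kb in replicate 2. By width alone, WNT2 was at or above 76.6% and 80.05% of its list.

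**Figure D2:**
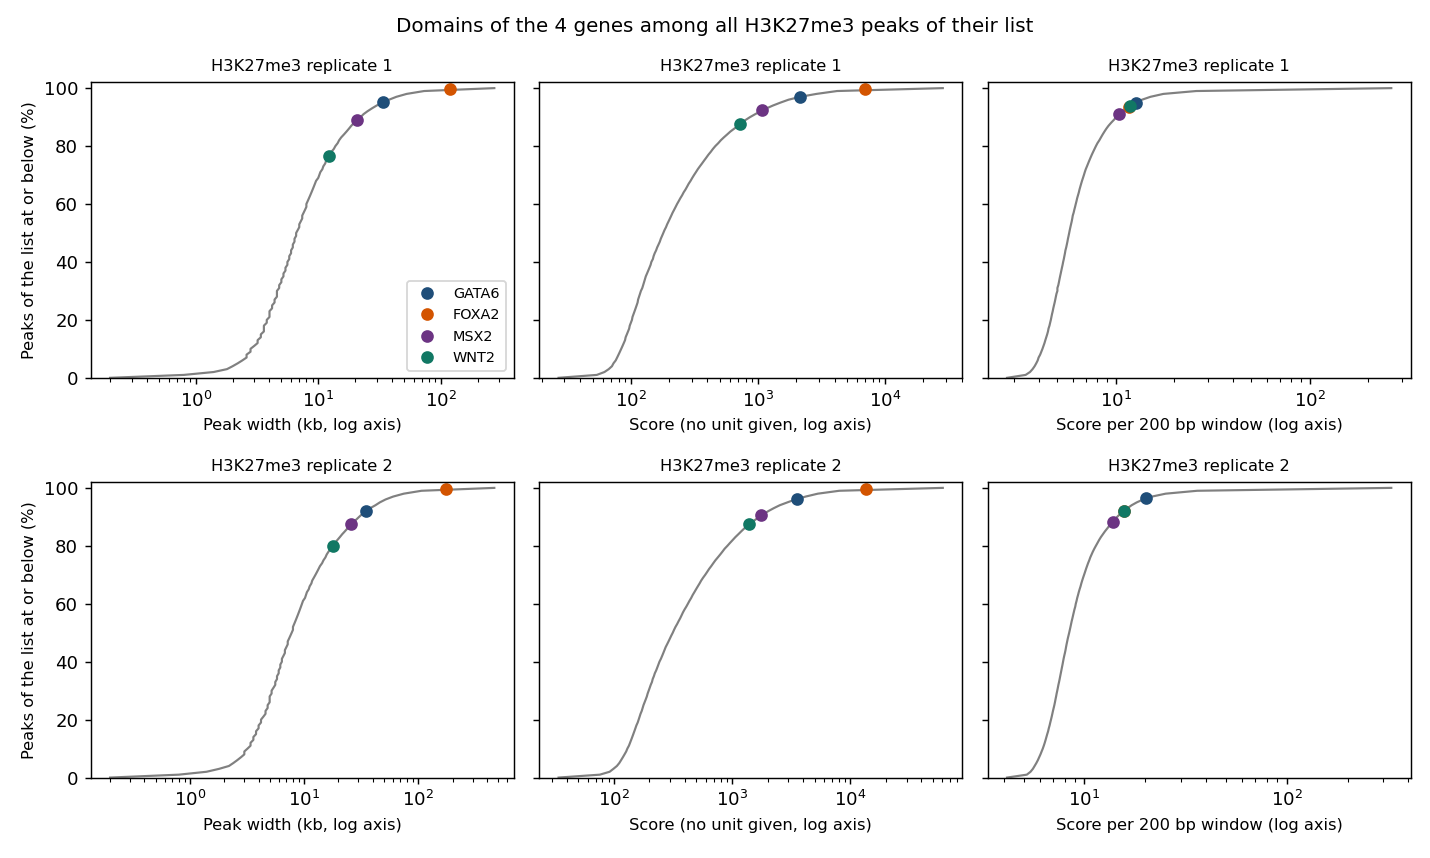
Share of the H3K27me3 peaks of each list, in percent, at or below a given width in kb, score, or score per window of 200 bp (grey curves, log horizontal axes), with the domains of the 4 genes as points. By width and score the genes spread out, from WNT2 to FOXA2, whereas per window all 4 sit between 88.3% and 96.4%, with the points of FOXA2 and WNT2 on top of each other.

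Inside the domains, H3K4me3 separated FOXA2 from the others. An H3K4me3 peak lay inside the domain of 4 of 4 genes in replicate 1 and of 3 of 4 in replicate 2, with FOXA2 the exception. Across the lists 21.6% of the H3K27me3 peaks in replicate 1 and 23.5% in replicate 2 overlapped an H3K4me3 peak by at least 1 bp. When H3K4me3 peaks below their list's median score were set aside, the domains of GATA6, MSX2 and WNT2 still held one in each replicate, 3 of 4, against 12% and 12.2% of all H3K27me3 peaks. The genes were chosen with their marks in these data known, so the count describes them and is no independent result. Among the autosomal H3K27me3 peaks of at least 10 kb, 33.2% and 32.2% held an H3K4me3 peak of any score. For these wider peaks, the share with an H3K4me3 peak at or above the median score was not computed.

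GATA6 had 4 H3K4me3 peaks inside its domain in replicate 1 and 2 in replicate 2, which covered nearly the same length, 9.40 kb and 9.20 kb. The strongest measured 5.8 kb and, in replicate 2, 7.8 kb, where it also took in the stretch of a separate peak of replicate 1. It scored at or above 85.9% and 89.2% of the H3K4me3 peaks of its list, and 94.4% and 97.7% by width. A smaller peak of 1.4 kb, with the same limits in both replicates, lay 2.2 to 3.6 kb below the position. All of them lay wholly inside the domain, which reached 17.2 and 18.4 kb beyond the strongest peak on the lower side and 10.8 and 9.0 kb on the upper. The H3K4me3 peaks took up 27.8% and 26.1% of the domain.

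MSX2 was the locus with the most H3K4me3 for its domain. In each replicate 4 H3K4me3 peaks lay inside it and covered 11.4 kb and 11.8 kb, or 54.8% and 45.7% of the H3K27me3 domain. The strongest measured 6.4 kb and 6.0 kb and by score was at or above 86.2% and 83.6% of the list. The other 3 recurred between replicates, at 2.6 to 5.0 kb below the position and from 5.4 to 8.0 kb and 9.8 to 11.2 kb above it over both replicates. The last of them was weak, at or above 4.33% and 28.8% of the list by score. A further H3K4me3 peak of 2.0 kb, with the same limits in both replicates, lay 29.2 to 31.2 kb below the position, outside the domain and with no H3K27me3 listed over it.

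WNT2 had a single H3K4me3 peak of 3.4 kb in both replicates, and its limits moved by 0.2 kb between them. It scored at or above 73.7% and 73.4% of the H3K4me3 peaks. The surrounding domain reached 6.8 kb and 9.0 kb beyond it on the lower side and 2.0 kb and 5.4 kb on the upper side. The peak therefore sat off centre, with its middle at 69.7% and 60.1% of the way through the domain. As the H3K4me3 peak kept its width while the domain was wider in replicate 2, its share of the domain was 27.9% in replicate 1 and 19.1% in replicate 2.

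FOXA2 had an H3K4me3 peak of 1.4 kb in replicate 1, which scored at or above 19.8% of its list by score and 6.08% by score per window and took up 1.18% of the domain. In replicate 2 no H3K4me3 peak was listed inside the domain, and the nearest began 314.8 kb above the position. Against this, the strongest H3K4me3 peaks inside the other 3 domains stood at 50.1% or more of their lists by score per window. Taking the autosomal H3K27me3 peaks of at least 10 kb that held H3K4me3, the median share under H3K4me3 was 16.0% in replicate 1 and 15.7% in replicate 2, with middle ranges of 7.84% to 29.0% and 7.69% to 27.4%. MSX2 lay above that range in both replicates, GATA6 and WNT2 in its upper part, and FOXA2 below it in replicate 1. For a given length of H3K4me3, the share is lower in a wider domain. The peaks behind the range had median widths of 17.8 kb and 18.4 kb, against 119 kb at FOXA2 in replicate 1. FOXA2 was not set beside domains of its own width, so the part of width in its place was not tested. By score, the strongest H3K4me3 peak of GATA6, MSX2 and WNT2 each stood above the median of the H3K4me3 peaks over H3K27me3, which lay at 45.0% and 43.3% of the lists. Every other H3K4me3 peak in the GATA6 domain stood below it, as did the weakest in the MSX2 domain in both replicates and 1 more there, at 42.2%, in replicate 2.

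**Figure D3:**
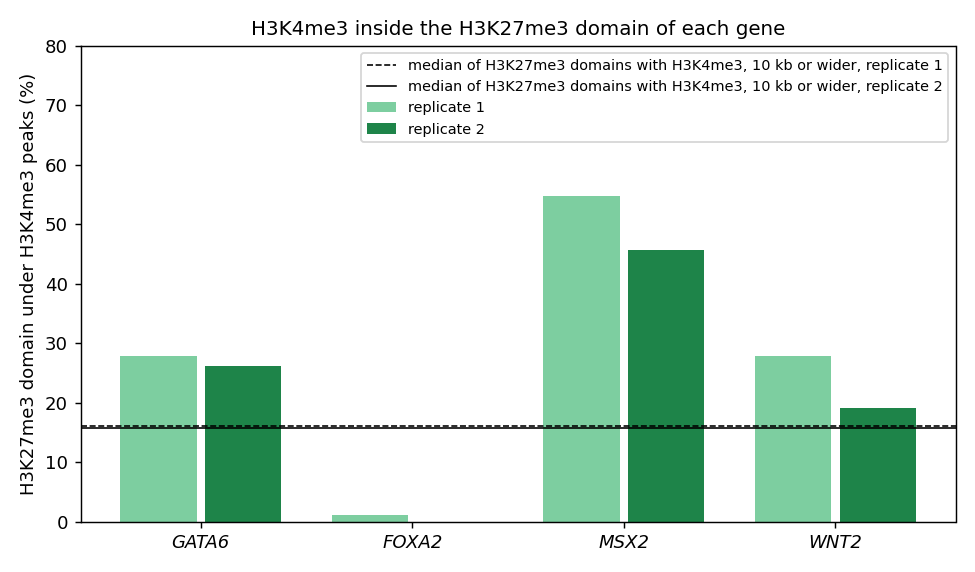
Percent of each gene's H3K27me3 domain that lay under H3K4me3 peaks of the same replicate number, with the medians over autosomal H3K27me3 peaks of at least 10 kb that hold H3K4me3 as lines (dashed for replicate 1). MSX2 is highest at 54.8% and 45.7%, GATA6 and WNT2 lie above the medians, and FOXA2 is at 1.18% in replicate 1 with no peak listed in replicate 2.

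Beyond the domain, the 4 loci differed in how much further H3K27me3 lay around them. GATA6 and WNT2 had at most 2 other H3K27me3 peaks within 500 kb and MSX2 had 6 and 8, while FOXA2 lay within a field of H3K27me3 that filled most of its surroundings. Outside the domain and within 500 kb of the position, H3K27me3 peaks covered 0.414% in replicate 1 at GATA6, with none listed in replicate 2. They covered 3.76% and 6.14% at MSX2, 0.891% and 1.53% at WNT2, and 78.4% and 80.4% at FOXA2. In all 4 flanks the difference between replicates was small beside the difference between FOXA2 and the other 3.

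**Figure D4:**
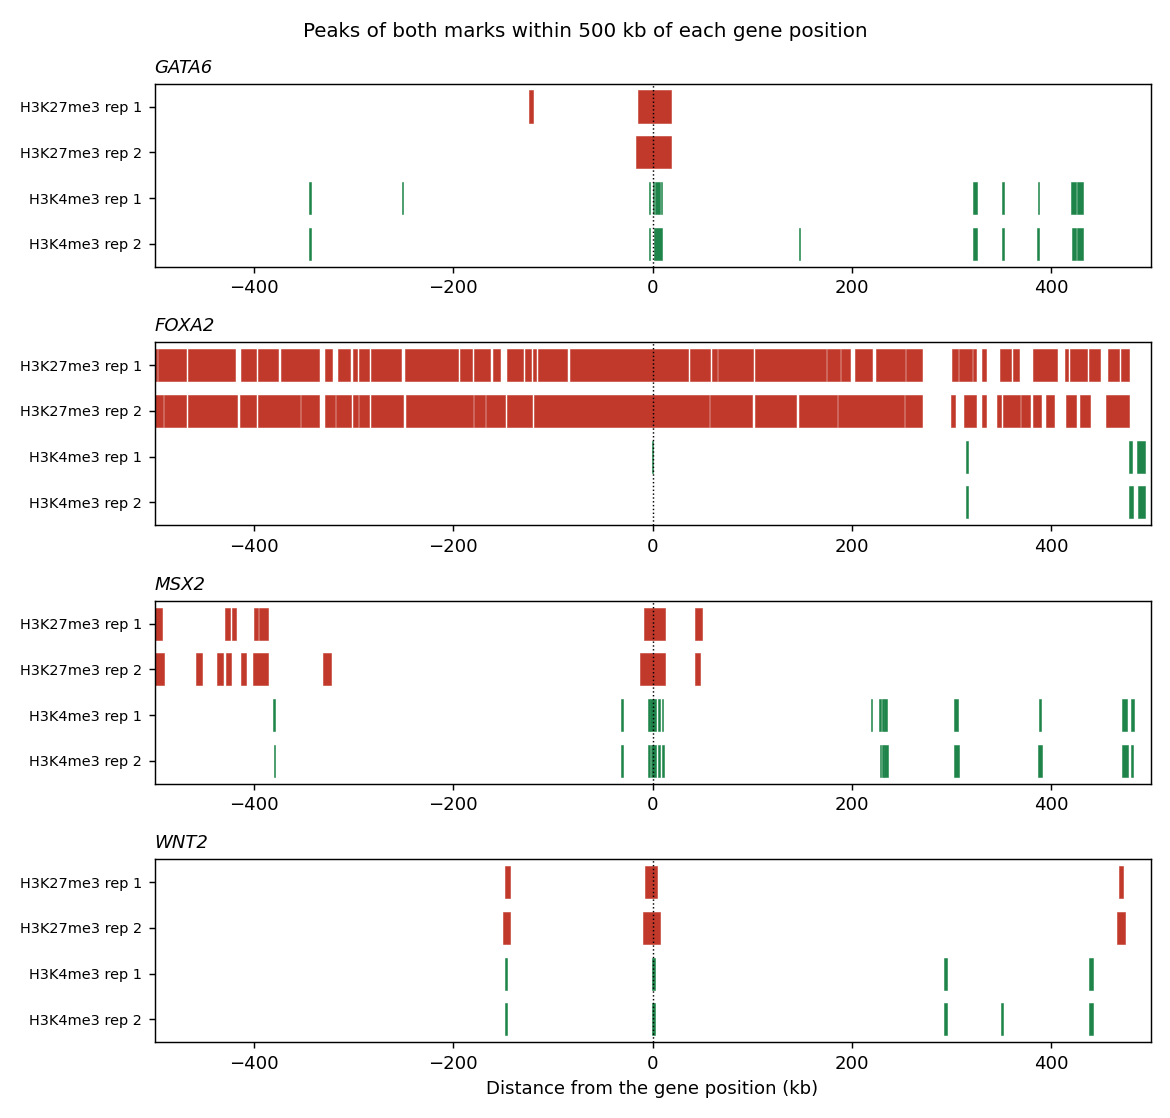
Peaks of H3K27me3 (red) and H3K4me3 (green) in each replicate within 500 kb of the 4 gene positions, by distance in kb. FOXA2 lies in a nearly unbroken field of H3K27me3 that turns patchy from about 270 kb above it, whereas GATA6 and WNT2 have at most 2 further H3K27me3 peaks and MSX2 has 6 in replicate 1 and 8 in replicate 2, most of them over 300 kb below it.

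GATA6 was the most isolated by the number and cover of other H3K27me3 peaks. By distance from the domain to the nearest one, WNT2 was more isolated in replicate 1, at 135.4 kb against 105.2 kb. In replicate 2 GATA6 was, at 762.2 kb against 133 kb at WNT2. The only other H3K27me3 peak within 500 kb of GATA6 was 4.0 kb wide. It lay at -124.2 to -120.2 kb (minus marks the side of lower coordinates) in replicate 1 alone and scored at or above 12.5% of the list. The next H3K27me3 peak above the domain was 712 kb away in replicate 1 and 1220.2 kb in replicate 2, and the next below it 105.2 kb and 762.2 kb. Around it stood H3K4me3 peaks without H3K27me3, 7 outside the domain in each replicate, none of which overlapped an H3K27me3 peak. This was the common case, as only 7638 of all 26048 H3K4me3 peaks in replicate 1 and 7077 of 23986 in replicate 2 overlapped H3K27me3. The strongest, 426.2 to 432.2 kb above the position in replicate 1, was placed at 97.0% of its list by score and its counterpart in replicate 2 at 95.8%. Most of the H3K4me3 lay on that side, at 3.91% and 4.20% of the upper flank against 0.577% and 0.579% of the lower. In the RefSeq annotation of another assembly, ARS-UCD2.0, the nearest protein-coding genes are RBBP8 on the lower and MIB1 on the upper side, and no peak was assigned to them.

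WNT2 had 2 other H3K27me3 peaks within 500 kb in each replicate, and both recurred. One of them, at -148.2 to -143 kb in replicate 1 and -150.2 to -143 kb in replicate 2, itself held an H3K4me3 peak of 1.8 kb and 1.6 kb. Both marks there stood near the middle of their lists by score, the H3K27me3 peak at 53.7% and 60.1% and the H3K4me3 peak at 55.5% and 51.5%. The other, at 468.8 to 472.4 kb and 466.2 to 474.0 kb, held no H3K4me3. The remaining H3K4me3 peaks in the flanks, 2 in replicate 1 and 3 in replicate 2, carried no H3K27me3, like most H3K4me3 peaks of both lists. WNT2 lies between ASZ1 and ST7 in the RefSeq order.

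MSX2 had 6 further H3K27me3 peaks in replicate 1 and 8 in replicate 2. On the upper side a single one of 6.6 kb and 5.2 kb began 42.8 kb from the position in both replicates and scored at or above 34.6% and 20.7% of its list. The others gathered more than 300 kb below the position, and the 4 of replicate 2 without a counterpart stood between 24.5% and 33.0% of the list by score. None of the 10 H3K4me3 peaks of replicate 1 and 9 of replicate 2 in the flanks overlapped H3K27me3. Most H3K4me3 peaks of the lists did not either, as 7638 of 26048 and 7077 of 23986 overlapped it, so this is no trait of MSX2. As at GATA6, H3K4me3 favoured 1 side, with 4.67% and 4.84% of the upper flank and 0.773% and 0.657% of the lower. The RefSeq neighbours are NSG2 on the lower and FAM169A on the upper side.

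Around FOXA2, 41 H3K27me3 peaks were listed within 500 kb in replicate 1 and 32 in replicate 2, the domain included. All 41 overlapped a peak of the other replicate, as did 31 of the 32. Over the whole lists 91.0% of the H3K27me3 peaks of replicate 1 and 83.3% of those of replicate 2 did so. Where H3K27me3 fills most of the DNA in both lists, an overlap of 1 bp is nearly given, so the count says little about the field. The gaps on either side of the domain were 3.0 kb and 1.6 kb in replicate 1 and 2.6 kb and 1.2 kb in replicate 2, beside the 5 windows of 200 bp that the peak caller was set to bridge. Between 100 and 250 kb from the position, H3K27me3 still covered 86.3% and 93.6% of the lower side and 90.4% and 95.3% of the upper side. Within the field the FOXA2 domain had the highest score per window, at 11.6 against at most 10.4 for the other 40 peaks in replicate 1 and 15.7 against at most 15.1 for the other 31 in replicate 2. The medians of these other peaks were 7.15 and 11. At the other 3 genes, too, the domain had the highest score per window of the H3K27me3 peaks within 500 kb, and in replicate 2 that of GATA6 was the only one. Few peaks were there to rank, with 2 and 1 at GATA6, 3 and 3 at WNT2 and 7 and 9 at MSX2. As the genes were chosen as loci under this mark, these first places describe them and are no test.

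Joining H3K27me3 peaks at most 10 kb apart gave a run around FOXA2 that measured 1131.4 kb and 1131.2 kb in the 2 replicates. Its limits were 40679401 to 41810800 and 40679001 to 41810200 on chromosome 13, so the replicates differed by 0.4 kb at the lower and 0.6 kb at the upper end, far less than the limits of the single domain. The run reached from -860.6 to 270.8 kb and from -861 to 270.2 kb of the position. Above it the H3K27me3 peaks went on with wider gaps, covering 54.5% and 51.5% of the DNA between 250 and 500 kb. It held 35 peaks in replicate 1 and 25 in replicate 2, and H3K27me3 covered 91.7% and 95.6% of it. Of 7418 and 7374 such runs on autosomes, 1 was wider in each replicate, a run of 1189.6 kb and 1187 kb on chromosome 5. The domains of GATA6, MSX2 and WNT2 kept their width at this distance, as no other peak lay within 10 kb of them. With at most 3 kb between peaks the run at FOXA2 was 344.2 kb and 518 kb.

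H3K4me3 covered 1.48% and 1.50% of the FOXA2 flanks, between the values of WNT2, 0.911% and 1.16%, and of GATA6, 2.24% and 2.38%. Outside the domain 3 H3K4me3 peaks were listed within 500 kb in each replicate, all on the upper side and more than 310 kb from the position, past the end of the run. The first of them, from 314.6 to 317.0 kb in replicate 1 and 314.8 to 316.6 kb in replicate 2, was enclosed by H3K27me3 peaks of 12.6 kb and 12.2 kb. The other 2, at 478.2 kb and beyond, overlapped no H3K27me3 peak. The nearer of these 2 began directly where an H3K27me3 peak ended, at 478.2 kb in replicate 1 and 478.6 kb in replicate 2. On the lower side no H3K4me3 peak was listed within 500 kb in either replicate. FOXA2 stands between PAX1 and THBD in the RefSeq order.

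Set beside all 2473 stretches of 1 Mb on the 29 autosomes, the 1 Mb around FOXA2 was covered by H3K27me3 for 81.0% and 83.9%, with 4 stretches in replicate 1 and 6 in replicate 2 above it. The median stretch was covered for 1.36% and 1.58%. The 1 Mb around MSX2, at 5.76% and 8.56%, ranked at 72.7% and 76.5% of the stretches. GATA6, at 3.78% and 3.52%, ranked at 66.6% and 63.5%, and WNT2, at 2.10% and 3.28%, at 57.9% and 62.0%. For H3K4me3 the order was another one. MSX2 was highest, at 3.80% and 3.86%, followed by GATA6 at 3.10% and 3.22%, while FOXA2 at 1.44% and 1.24% and WNT2 at 1.24% and 1.48% were on either side of each other in the 2 replicates and near the median stretch of 1.58% and 1.60%. The chromosomes themselves differed, as H3K27me3 covered 11.005% and 11.8% of chromosome 13 but 4.83% and 5.26% of chromosome 24, 7.41% and 8.21% of chromosome 20 and 3.92% and 4.29% of chromosome 4.

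**Figure D5:**
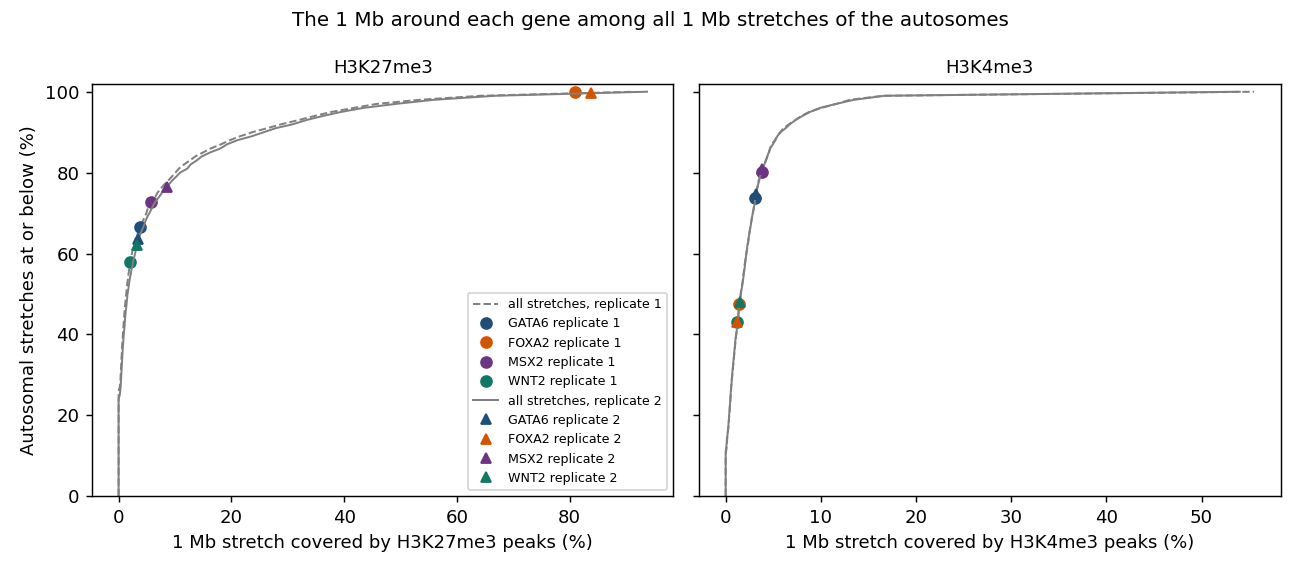
Share of the autosomal 1 Mb stretches, in percent, that are covered by H3K27me3 (left) or H3K4me3 (right) peaks up to a given percent of their length (grey curves), with the 1 Mb around each gene as circles for replicate 1 and triangles for replicate 2. FOXA2 sits at 81.0% and 83.9% for H3K27me3, apart from the other 3 genes at 8.56% or less, and is near the middle for H3K4me3.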

How the data were processed

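The deposited data are 4 peak lists of CUT&RUN libraries of NBFR-bESCs, 2 per mark. Groups and replicate numbers are those of the sample titles. The authors trimmed the reads, aligned them with BWA 0.7.17-r1188 to ARS-UCD1.2, removed duplicates and alignments with quality below 5, and called peaks in each library with epic2 0.0.41 in windows of 200 bp. Up to 5 gaps were allowed for H3K27me3 and 1 for H3K4me3, and no control library is stated. The deposited score of each peak was used only within its list. Depth per library is not given in the lists.

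The members, gene lists and measures were chosen with earlier results of these data known. The domain of a gene is the H3K27me3 peak over its position. Overlap needs at least 1 bp, and marks were compared within a replicate number. Flanks leave out the domain. Stretches of 1 Mb were tiled over chromosomes 1 to 29 up to the last listed peak. Only the 4 members were named, plus the nearest RefSeq protein-coding genes, whose coordinates (ARS-UCD2.0) were not used. The planned description of promoter sequences was not made, as no sequence of this assembly was used here. Overlaps were tested on simulated peaks and against bedtools 2.31.1. Python 3.11.15, numpy 2.4.6, pandas 2.3.3 and matplotlib 3.10.9 were used.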

Additional observations from a re-analysis of the deposited data

How the results depend on the processing

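No paired analysis was possible because no value comes from a test. The marks were matched by replicate number, and crossing the numbers moved none of the 5 values it touches by over 1 SD between the 2 replicates. The crossed values use the same peaks in other pairs, and for H3K4me3 cover at FOXA2 the SD, 0.832, is above the value, 0.588. Crossing therefore says little about stability. Leaving out a replicate gives the value of the other, as printed in the report, and with 2 replicates cannot exceed 1 SD, so it says nothing about stability. Apart from leaving out a replicate, 52 values were recomputed for 17 results, the 5 crossed ones included, and 29 moved by no more than 1 SD. That count is no measure of stability, as many of the values could not move. The stretch common to both replicates was the replicate 1 domain of each gene. All H3K4me3 peaks in the domains lay wholly inside, so asking for 50% inside changed no cover there. Joining left the GATA6, MSX2 and WNT2 domains as they were, with no other peak within 10 kb. The 23 values that moved by more follow, as means of both replicates. With peaks at most 3 kb or 10 kb apart joined, the FOXA2 domain of 147.2 kb became 431.1 kb or 1131.3 kb. The place by score of FOXA2 (99.66%) was 99.57% on autosomes alone, 92.8% per window and 99.74% by width. That of WNT2 (87.5%) was 87.2%, 93.1% and 78.3%. GATA6 (96.6%) stood at 95.7% per window and 93.6% by width, and MSX2 (91.4%) at 89.6% and 88.3%. With only H3K4me3 peaks at or above the median score, H3K4me3 covered 19.7% of the GATA6 domain instead of 26.97% and 37.6% of the MSX2 domain instead of 50.3%. H3K27me3 cover of the FOXA2 flanks (79.4%) was 91.7% within 250 kb, 62.0% within 1000 kb and 76.1% without peaks under the median score. At MSX2 (4.95%) it was 1.24%, 3.19% and 2.05%. The share of all H3K27me3 peaks with H3K4me3 (22.6%) was 20.2% with at least 50% of the H3K4me3 peak inside, 17.4% with both marks at or above the median score and 32.7% among autosomal peaks of at least 10 kb. With 2 libraries per mark and unknown depth, the H3K4me3 peak at FOXA2 rests on replicate 1 alone. Without that replicate, H3K4me3 covered 0% of the domain.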

Other observations

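Past 500 kb, the run of H3K27me3 peaks that holds FOXA2 contained a group of H3K4me3 peaks at its far lower end. From -788.6 to -769.6 kb of the FOXA2 position, 7 of them were listed in replicate 1, and 5 from -788 to -770.2 kb in replicate 2, and the strongest, of 4.0 kb and 6.4 kb, scored at or above 58.5% and 61.4% of its list. A weak one, at 6.87% and 4.84% of the lists, began at -854 kb and -854.2 kb. From that group to the lower edge of the FOXA2 domain, over 686.4 kb and 651.4 kb, no H3K4me3 peak was listed. No gene was assigned to the group, as an annotation of this assembly was not used here.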
